A study of Mus musculus with 4 samples.

Results

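The genes that bring cystine into the cell, make cysteine and build, break down or use glutathione (GSH) were followed in mouse kidney epithelial cells with and without fumarate hydratase (FH). They are 7 of the 16752 genes tested: Slc7a11, Slc3a2, Cth, Gclc, Gss, Ggt1 and Glrx, each found by its symbol on 1 probe set in the authors' table of their own comparison of the same groups. That table holds only the 1616 probe sets that had passed the authors' test, so each of these genes had passed a test of this contrast before it could be found by name. The tests given here are therefore a description of size and spread and no independent evidence that the genes differ.

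Both groups were immortalised kidney epithelial cell lines, and the labels give both the background Fh1fl/fl, a pair of Fh1 alleles flanked by loxP sites, on C57BL/6. The Fh1fl/fl cells keep the gene and are the wild-type (wt) control, and the Fh1Δ/Δ cells have lost it. All cells grew in normoxia without treatment, in DMEM that held 10% FBS, 2 mM glutamine, pyruvate and uridine. Total RNA of 2 biological replicates per genotype was measured on 4 Affymetrix whole-transcript arrays. The study names 1 cell line of each genotype, so loss of FH and the separate history of each line cannot be told apart.

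GSH is a tripeptide of glutamate, cysteine and glycine and the main soluble thiol of the cell, and the kidney both makes it and recovers it from the filtrate. Cysteine is usually the scarce ingredient. It enters as cystine, its oxidized dimer, through the exchanger xCT in return for glutamate, or it is made inside the cell from methionine by transsulfuration. A ligase then joins glutamate to cysteine, and a synthetase adds glycine. Outside the cell a transpeptidase starts the breakdown of GSH, and inside it glutaredoxin uses GSH to release proteins from mixed disulphides. The transcription factors NRF2 and ATF4 are known to control several of these genes, and FH loss lets fumarate accumulate, which can bind the thiol of GSH.

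Fh1 itself, the targeted gene, had log2 expression values of 10.48 and 10.45 in Fh1fl/fl cells and of 9.21 and 9.14 in Fh1Δ/Δ cells, and which exons its probe set reads was not examined. Replicate arrays correlated at 0.992 in both genotypes, across probe sets, which are not independent replicates. The labels do not say whether the replicates were separate cultures, so the p-values reflect spread between arrays that may be technical. An exact permutation test of 2 arrays against 2 cannot give a p below 0.333, and all adjusted p-values come from limma, a linear model that shares the estimate of spread over all genes. Of the 12 markers of kidney epithelium in a fixed list, none has a name in the authors' table, nor has any in the lists for mesenchyme, endothelium and leukocytes, and of the proximal tubule list only Ggt1 has one, so the labelled cell type was not checked. Probe sets brighter than the median level of 7.24 had a median log2 difference (Fh1Δ/Δ minus Fh1fl/fl) of 0.02 over the whole array, which ranged from -0.33 to 0.44 over 20 chromosomes, the Y chromosome left out. Dimmer probe sets had a median of -0.22, and it was below 0 on each of the 20 chromosomes, from -0.28 to -0.13. The 3 probe sets placed on the Y chromosome, all among the dimmer, had a median of -4.39, with 0% higher in Fh1Δ/Δ cells. The lines thus differed in Y chromosome expression as well as in Fh1, and why was not tested. Brightness here is the mean over all 4 arrays, Fh1Δ/Δ included, so a gene's own change can decide its group. This was so for Slc7a11 and Glrx, whose Fh1fl/fl means of 7.045 and 6.73 lay under 7.24. The median of a gene's own chromosome, over probe sets of like brightness, is given below beside its change.

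Of the 7 genes, 5 were higher in Fh1Δ/Δ cells and 2 were lower at a Benjamini-Hochberg adjusted p under 0.05. Of all genes tested, 6.23% were higher and 3.99% lower at that threshold, or 10.2% in either direction. Of the 1613 genes that have a name, and so had passed the authors' test, 41.2% were higher and 23.0% lower. Centring each array on its median left 43.3% of all calls higher, and removing the chromosome medians of like brightness left 75.8%, against 61.0% without either. The uptake, transsulfuration, ligase and glutaredoxin genes made up the higher group, and the synthetase and the transpeptidase made up the lower one. For all 7 genes both arrays of one genotype lay beyond both arrays of the other, which was also so for 25.6% of all genes with Fh1Δ/Δ cells higher and for 40.7% with Fh1Δ/Δ cells lower. Every one of the 28 values lay above the lower quartile of its array, which ranged from 5.37 to 5.70.

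**Figure D1:**
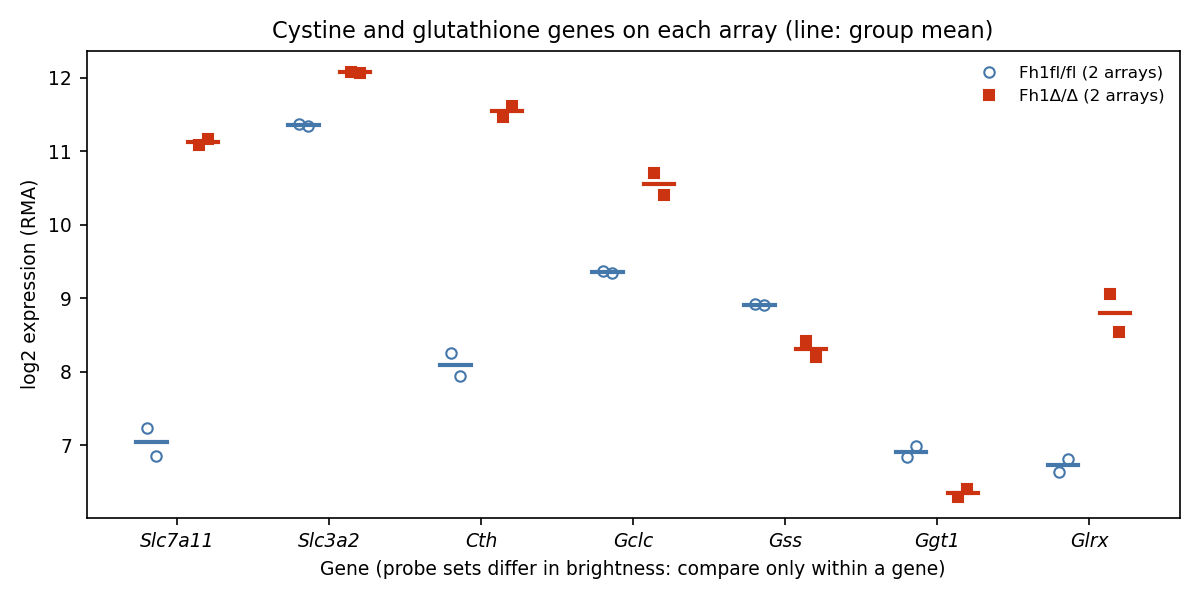
Log2 expression (RMA) of the 7 genes on each of the 4 arrays, with open circles for Fh1fl/fl, filled squares for Fh1Δ/Δ and a line for each group mean of 2 arrays. Slc7a11 lay near 7 in Fh1fl/fl cells and near 11 in Fh1Δ/Δ cells, while Gss and Ggt1 were the 2 genes whose Fh1Δ/Δ arrays lay lower.

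Slc7a11 (probe set 6904892, chromosome 3) encodes the light chain of xCT, which carries the exchange of cystine for glutamate. Its log2 expression was 7.23 and 6.86 on the Fh1fl/fl arrays and 11.09 and 11.16 on the Fh1Δ/Δ arrays. The Fh1fl/fl arrays were the less alike, by 0.37, a gap exceeded by 12.5% of all genes between those arrays, and the groups lay far apart. Slc7a11 rose by 4.08 on the log2 scale (standard error 0.16, adjusted p = 0.00114), which is 16.9-fold with a 95% interval of 12.8 to 22.3. Over the 4 pairs of an Fh1Δ/Δ and an Fh1fl/fl array the difference ranged from 3.86 to 4.31. Only 3 of the 16752 genes had a larger increase, and these were B4galnt2, Aldh1l2 and Slc25a13. The brighter probe sets of chromosome 3 had a median difference of -0.05. Slc7a11 counts as brighter only through its Fh1Δ/Δ values, and the dimmer probe sets of chromosome 3 had a median of -0.19.

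The promoter of Slc7a11 is shown because it holds a motif that few promoters hold. RefSeq windows of 250 bases before to 50 after a start were searched on both strands for the core of the antioxidant response element, TGACNNNGC, which NRF2 binds, and for the amino acid response element, TGATGNAA, which ATF4 binds with a C/EBP partner. The 250 bases before the start of Slc7a11, from GRCm38.p6, chr3:50443614-50443863, minus strand, read 5′ to 3′ as follows, with matches to the amino acid response element in capitals.
Slc7a11: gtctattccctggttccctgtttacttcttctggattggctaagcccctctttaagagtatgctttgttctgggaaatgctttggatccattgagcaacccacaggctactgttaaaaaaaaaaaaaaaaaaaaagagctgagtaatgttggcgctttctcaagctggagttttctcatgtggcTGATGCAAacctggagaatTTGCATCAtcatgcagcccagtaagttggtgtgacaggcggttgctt
The first match begins 66 bases before the start and reads forward. The second begins 47 bases before it and reads on the other strand, and 11 bases lie between them with no overlap. At least 1 match to this element was present in 3.97% of 32817 promoter windows, and 2 or more in 0.0701%. The Slc7a11 window held no match to the antioxidant response element core, which 12.4% of windows hold. Sequence outside the window was not searched, so elements farther from the start would not be seen. These letters are a description of the reference sequence and not a measurement of binding.

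Of the other genes, Slc3a2 and Gss have 1 window each and Glrx has 2 that start 1 base apart, and none of these held either motif. Ggt1 has 4 windows, since it has several starts, and 3 of them held 1 match each to the antioxidant response element core and none to the other motif. These matches were TGACACAGC, beginning 41 bases after the first start in the table, the letters GCTGGGTCA on the printed strand, beginning 36 bases before the second, and TGACGCTGC, beginning 83 bases before the third. Cth and Gclc were not matched in the promoter table. Ggt1 was lower in Fh1Δ/Δ cells and Slc7a11 higher, and no member was chosen for its promoter.

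Slc3a2 (probe set 6871361, chromosome 19) encodes the 4F2 heavy chain, which brings xCT and other amino acid transporters to the plasma membrane. It had values of 11.37 and 11.34 on the Fh1fl/fl arrays and of 12.08 and 12.07 on the Fh1Δ/Δ arrays. Replicates were closer than for most genes, as 87.9% of genes had a larger gap between the Fh1fl/fl arrays and 97.1% between the Fh1Δ/Δ arrays. Slc3a2 rose by 0.71 on the log2 scale (standard error 0.11, adjusted p = 0.0234), or 1.64-fold with a 95% interval of 1.36 to 1.98. Within the arrays, the change of Slc7a11 exceeded that of its partner by 3.16 to 3.58 over the 4 pairs of arrays. The brighter probe sets of chromosome 19 had a median difference of 0.07. Without any 1 of the arrays Slc3a2 did not pass the threshold, with adjusted p from 0.068 to 0.107 and log2 fold changes from 0.70 to 0.73.

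Cth (probe set 6910938, chromosome 3) encodes cystathionine gamma-lyase, which releases cysteine in the last step of transsulfuration. Its values were 8.26 and 7.94 in Fh1fl/fl cells and 11.47 and 11.61 in Fh1Δ/Δ cells. As for Slc7a11, the Fh1fl/fl arrays lay farther apart than the Fh1Δ/Δ arrays, and no values overlapped. Cth rose by 3.44 on the log2 scale (standard error 0.15, adjusted p = 0.00148), or 10.9-fold with a 95% interval of 8.36 to 14.1. The differences over the pairs of arrays ranged from 3.21 to 3.67, and 12 genes had a larger increase. Slc7a11 and Cth lie on the same chromosome, whose brighter probe sets had the median of -0.05 given above.

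Gclc (probe set 6990664, chromosome 9) encodes the catalytic subunit of glutamate-cysteine ligase, the rate-limiting enzyme of GSH synthesis. The Fh1fl/fl arrays gave 9.37 and 9.34, and the Fh1Δ/Δ arrays 10.70 and 10.40. Here the Fh1Δ/Δ arrays were the less alike, with a gap of 0.29. Gclc rose by 1.20 on the log2 scale (standard error 0.14, adjusted p = 0.0128), or 2.29-fold with a 95% interval of 1.80 to 2.93, and 258 genes, 1.54% of all, had a larger increase. The brighter probe sets of chromosome 9 had a median difference of 0.15, and 72.3% of them were higher in Fh1Δ/Δ cells. Without Fh1Δ/Δ replicate 1 the increase was 1.05 and its adjusted p 0.0551.

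Gss (probe set 6892376, chromosome 2) encodes GSH synthetase, which adds glycine in the next step. Its values were 8.92 and 8.91 in Fh1fl/fl cells and 8.42 and 8.20 in Fh1Δ/Δ cells. The Fh1fl/fl arrays were nearly equal, and both Fh1Δ/Δ arrays lay below them by at least 0.49. Gss fell by 0.60 on the log2 scale (standard error 0.13, adjusted p = 0.0455), or 1.52-fold lower with a 95% interval of 1.22 to 1.89. Within the arrays, the change of Gclc exceeded that of Gss by 1.75 to 1.84 over the 4 pairs, a range narrower than that of either gene alone. The brighter probe sets of chromosome 2 had a median difference of -0.10. With that median removed the log2 fold change of Gss was -0.50 (adjusted p = 0.0789), and without any 1 of the arrays its adjusted p ranged from 0.0993 to 0.159.

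Ggt1 (probe set 6768867, chromosome 10) encodes gamma-glutamyltransferase 1, a cell-surface enzyme that cleaves extracellular GSH and is abundant in the proximal tubule. It had values of 6.85 and 6.99 on the Fh1fl/fl arrays and of 6.31 and 6.41 on the Fh1Δ/Δ arrays. The groups were separated by 0.43 at their closest. Ggt1 fell by 0.56 on the log2 scale (standard error 0.12, adjusted p = 0.0487), or 1.47-fold lower with a 95% interval of 1.19 to 1.82, and 1249 genes, 7.46% of all, had a larger decrease. The dimmer probe sets of chromosome 10, 360 in number, had a median difference of -0.28, and 10.8% of them were lower than Ggt1. Most of that median was common to the dimmer probe sets of all chromosomes, at -0.22. With the whole median removed, the log2 fold change was -0.28 (adjusted p = 0.231). With only the part removed by which chromosome 10 differed from all dimmer probe sets, it was -0.50 (adjusted p = 0.0712), and without any 1 of the arrays the adjusted p ranged from 0.085 to 0.199.

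Glrx (probe set 6808314, chromosome 13) encodes glutaredoxin 1, the cytosolic thiol transferase that uses GSH to reduce protein mixed disulphides. Its values were 6.64 and 6.82 in Fh1fl/fl cells and 9.06 and 8.54 in Fh1Δ/Δ cells. The gap of 0.53 between the Fh1Δ/Δ arrays was the widest among the 7 genes, and only 6.55% of all genes had a wider one there. Glrx rose by 2.07 on the log2 scale (standard error 0.20, adjusted p = 0.00759), or 4.20-fold with a 95% interval of 2.96 to 5.94. The brighter probe sets of chromosome 13 had a median difference of 0.30, and 78.9% of them were higher in Fh1Δ/Δ cells. With that median removed the increase was 1.77 (adjusted p = 0.0117). Glrx counts as brighter only through its Fh1Δ/Δ values. The dimmer probe sets of chromosome 13 had a median of -0.13, with 35.9% higher in Fh1Δ/Δ cells.

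**Figure D2:**
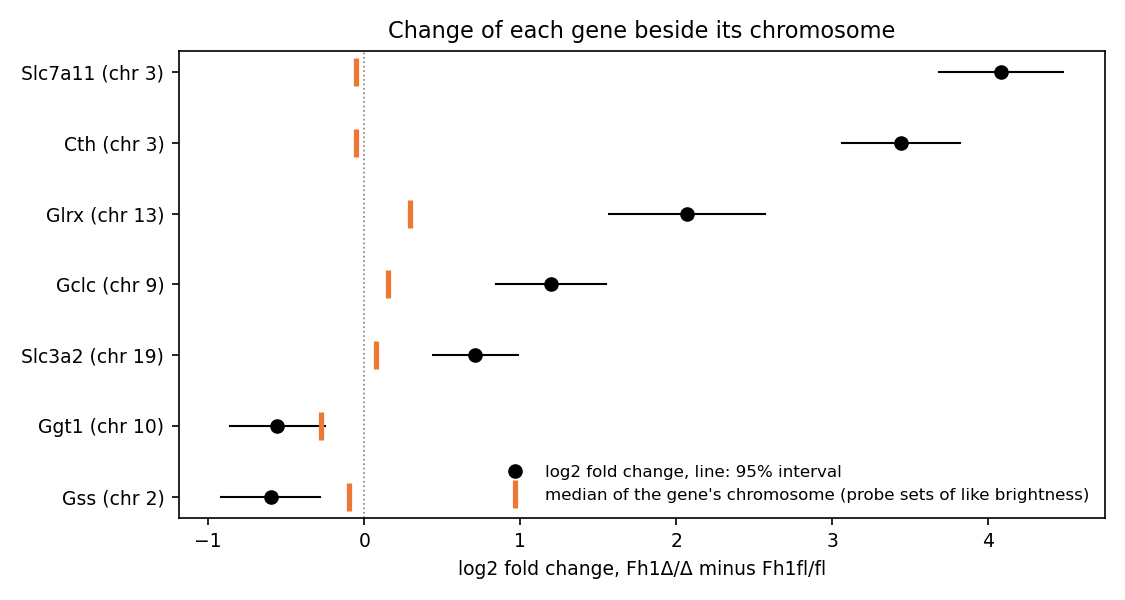
Log2 fold change of each gene (Fh1Δ/Δ minus Fh1fl/fl, points, with 95% intervals from limma as lines) beside the median difference of the probe sets on the same chromosome and of like brightness (orange marks). The interval of Ggt1 includes the median of -0.28 on chromosome 10, and those of the other 6 genes lie clear of their marks.

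Ordered by change, the genes ran from Slc7a11 through Cth, Glrx, Gclc and Slc3a2 to Ggt1 and Gss. The ranges over the 4 pairs of arrays did not overlap between any neighbours in this order except Ggt1 and Gss, whose changes differed by 0.04. The closest of the other neighbours were Slc7a11 and Cth, where the lowest difference of Slc7a11 was 3.86 and the highest of Cth 3.67. These ranges come from the same 4 arrays and carry no test.

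**Figure D3:**
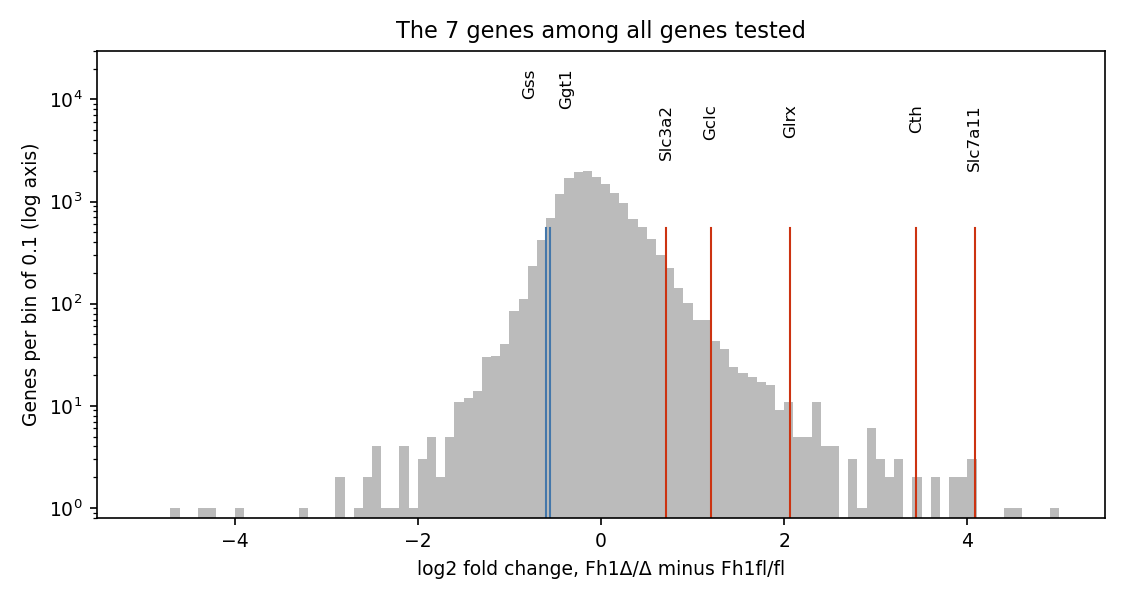
Histogram of the log2 fold changes of all 16752 genes in bins of 0.1, with the number of genes on a log axis and a line for each of the 7 genes (red for higher, blue for lower in Fh1Δ/Δ cells). Slc7a11 and Cth lie in the far right tail, while Gss and Ggt1 lie on the left flank, where 6.08% and 7.46% of genes had larger decreases.

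The rest of the pathway was read from a list of 70 genes that includes the 7. Only 16 of them have a name, and so had passed the authors' test of this contrast. Of these, 12 were higher and 3 lower, beside 41.2% higher and 23.0% lower among all named genes and 6.23% and 3.99% among all genes tested. None of the 3 was called lower when the replicate number entered as a block, with the chromosome medians removed or without any 1 of the arrays, although 4 list genes with the block, 2 with the medians removed and 3 without an array were lower at an unadjusted p under 0.05 in limma. The other 54 were not looked at, so neither the modifier subunit of the ligase (Gclm) nor GSH reductase (Gsr) has a value here. Apart from the 7, the named genes were 9, of which 7 were higher and 1 lower. All 9 had passed the authors' test as well, and the shares among all named genes were again 41.2% and 23.0%. The list was chosen with earlier results of these data known, so its counts are a description and no evidence of an excess in the pathway. Among transporters, Slc6a9, which carries glycine, had values of 8.38 and 8.41 in Fh1fl/fl cells and of 10.68 and 10.83 in Fh1Δ/Δ cells, and it rose by 2.37 on the log2 scale (adjusted p = 0.00177). Slc1a4, which carries small neutral amino acids, rose by 2.22 (adjusted p = 0.00177), with values of 8.25 and 8.18 against 10.40 and 10.46. Both had replicate gaps far smaller than these changes.

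Sqrdl, the mitochondrial sulphide oxidase that works downstream of the hydrogen sulphide made by Cth, rose by 1.07 on the log2 scale (adjusted p = 0.0109), from values of 9.61 and 9.48 to 10.56 and 10.66. Txn2, mitochondrial thioredoxin, rose by 0.53 (adjusted p = 0.0496), and Prdx4, a peroxiredoxin of the endoplasmic reticulum, fell by 0.60 (adjusted p = 0.0474). Neither Txn2 nor Prdx4 passed the threshold with the chromosome medians removed. Lap3, an aminopeptidase that can cleave the dipeptide left by GSH breakdown, did not pass, with a log2 fold change of -0.33 (adjusted p = 0.107). Of the factors that control the pathway, Atf4, Ddit3 and Trib3 rose by 0.89, 1.50 and 2.52 on the log2 scale (adjusted p = 0.0147, 0.0140 and 0.00177). Nfe2l2, which encodes NRF2, has no name in the table.

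The named genes with patterns most like that of Slc7a11, by Euclidean distance between the deviations of the 4 arrays from each gene's mean, were Ccnd2 (cyclin D2) at 0.39, Slc25a13 (a mitochondrial aspartate-glutamate carrier) at 0.47 and Mt2 (a metallothionein) at 0.51. No gene without a name lay nearer than these. For Gss, Prdx4 was the nearest of all genes at 0.01. Its values of 11.05 and 11.04 in Fh1fl/fl cells and of 10.56 and 10.33 in Fh1Δ/Δ cells ran parallel to those of Gss on every array. Nudt2, a nucleotide hydrolase, followed at 0.04, with 1 gene without a name between them, and then 4930550C14Rik, also at 0.04. With only 4 arrays, likeness here is mostly the size of the difference between the genotypes.

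**Figure D4:**
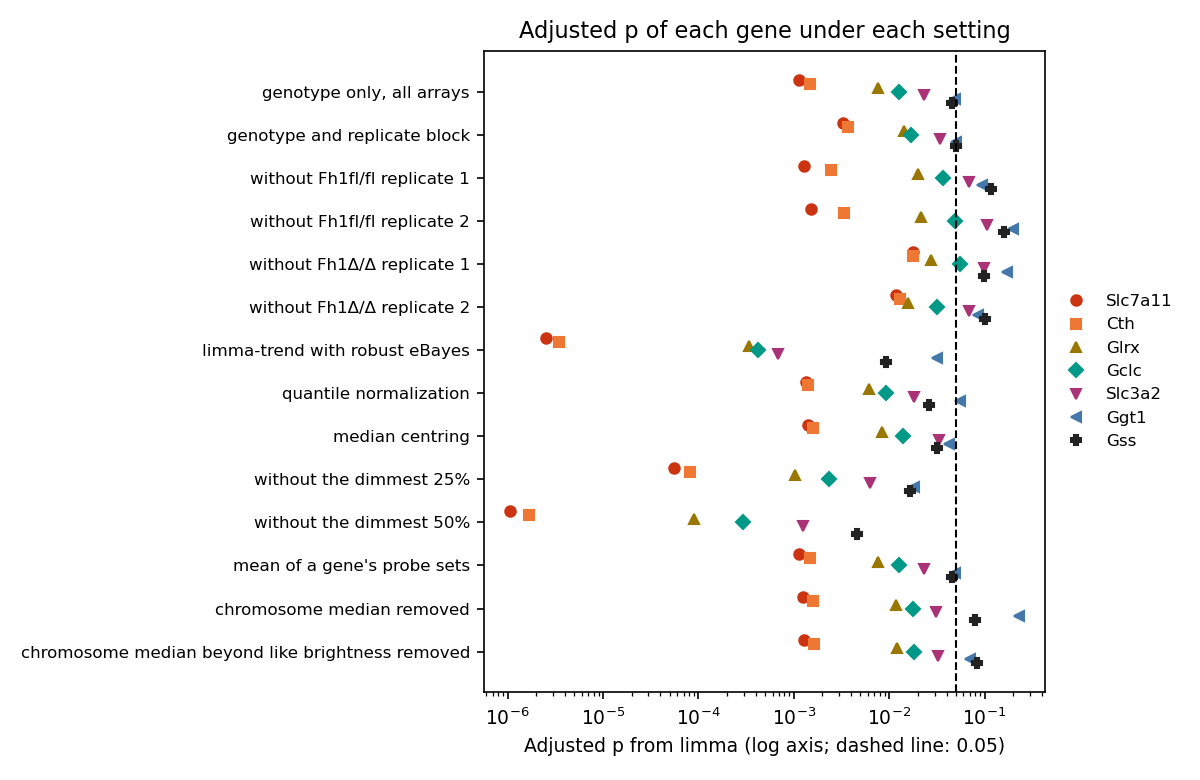
Adjusted p from limma (log axis, dashed line at 0.05) for each of the 7 genes under the setting reported, with genotype only and all arrays, and under each alternative. Slc7a11, Cth and Glrx lie left of the line in every row, while Gss and Ggt1 lie close to it and cross it in several. Slc3a2 crosses it in every row that leaves out an array, and Gclc in the row without Fh1Δ/Δ replicate 1.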

How the data were processed

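Total RNA was hybridised to 4 arrays, 2 per genotype. The authors deposited log2 values of 16755 probe sets, made with RMA and Partek on the build mm9 according to the submitters' processing notes, which give no versions. Names came from the authors' table of 1616 probe sets, whose normoxia values equal those of the matrix. Its fold changes and p-values of the authors' comparison were not used, nor were 12 columns, 4 in each of 3 tables, of hypoxia arrays outside these samples, so hypoxia was not analysed here. Values were fitted with limma 3.58.1 (R 4.3.3, lmFit and eBayes, genotype as the single term, with a prior of 3.447 and a residual of 2 degrees of freedom), and p-values were adjusted over 16752 genes, keeping the brightest probe set of 3 repeated names. The script was tested on simulated data. Intervals are 95% and rest on the moderated spread. No filter on dim probe sets was used, and the number of arrays limits the precision. Probe sets without a name were placed on a chromosome by 2 neighbours in probe set order, a rule right for 1564 of 1566 probe sets of known place. The text names the 7 genes, the named genes of the fixed list, Fh1 and the 3 named genes nearest to Slc7a11 and to Gss. B4galnt2 and Aldh1l2 were named after their values were seen. The genes, lists, motifs and alternatives were chosen with earlier results of these data known. Each choice was varied in turn: a block for the replicate number, leaving out an array, limma-trend with robust eBayes, quantile normalization, median centring, dropping the dimmest 25% or 50% of probe sets, averaging repeated probe sets of a gene, removing the median difference of each chromosome (brighter and dimmer probe sets apart, which also removes what is common to dimmer probe sets) and other thresholds. Promoter sequences are from RefSeq (GRCm38.p6), where 5 of the 7 genes matched.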

Additional observations from a re-analysis of the deposited data

How the results depend on the processing

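The block, limma-trend, the filters on dim probe sets, averaging and other thresholds left the fold changes of the 7 genes as they were, so they could not reverse a direction. Leaving out an array could not either, because for each gene all pairs of arrays differed in the same direction. Only the normalizations and the removal of chromosome medians could have done so. The filters on dim probe sets use the mean over all 4 arrays. In Fh1fl/fl cells Slc7a11 (7.045) and Glrx (6.73) lay under the median level of 7.24. Their Fh1Δ/Δ values kept them in without the dimmest 50%, so passing there followed in part from their increase. No gene of the 7 changed direction under any alternative. Slc7a11, Cth and Glrx passed in all of them, with leave-one-array-out ranges of 3.89 to 4.27, 3.29 to 3.60 and 1.81 to 2.33. These ranges were 0.70 to 0.73 for Slc3a2, 1.05 to 1.34 for Gclc, -0.71 to -0.49 for Gss and -0.63 to -0.49 for Ggt1, with 3 to 4 genes called higher and 0 lower (of 2 lower at an unadjusted p under 0.05 by limma), where the lone array of a genotype is assumed to vary like the other group. Without 1 array, all genes called ranged from 205 to 480 higher and 81 to 322 lower, and list genes from 6 to 9 higher and 0 lower. With the replicate number as a block Gss (-0.60, adjusted p = 0.0503) and Ggt1 (-0.56, adjusted p = 0.0505) did not pass, so 0 of the 7 and 0 list genes were lower, and the block changed no other call among the 7. In the array names the replicate 1 arrays carry consecutive numbers, as do the replicate 2 arrays. The labels do not say what these numbers mean. The replicate 1 arrays of both genotypes correlated at 0.106 in their deviations from the group means. With 2 arrays per group the replicate 2 arrays give the same value by construction and add no further pair. Ggt1 also missed the threshold after quantile normalization (-0.49, 1 gene then lower) and was left out with the dimmest 50% of probe sets (1 lower). With the median of each chromosome removed, separately for brighter and dimmer probe sets, Gss had -0.50 and Ggt1 -0.28, so 0 of the 7, 0 list genes and 313 of all genes were lower, and the median of all genes moved from -0.11 to -0.0018. This also takes out the shift common to dimmer probe sets. In a further setting, chosen after the data were seen, only what a chromosome had beyond all probe sets of like brightness was removed, and Gss then had -0.48 and Ggt1 -0.50 (adjusted p = 0.0834 and 0.0712), with 0 of the 7, 0 list genes and 401 of all genes lower. At an adjusted p under 0.01, Slc3a2 (0.71), Gclc (1.20), Gss (-0.60) and Ggt1 (-0.56) did not pass, leaving 3 of the 7 higher and 0 lower, 6 list genes higher and 0 lower, and 197 genes higher and 51 lower in all. A log2 fold change of at least 1 removed Slc3a2 (0.71), Gss and Ggt1, leaving 0 of the 7 and 0 list genes lower, and 370 higher and 136 lower in all. At 0.1, 1897 genes were higher and 2031 lower. All calls were 1854 higher and 1471 lower with limma-trend, 1749 and 1526 without the dimmest 25%, and 1693 and 1245 without the dimmest 50%, and 1057 were lower with median centring. The causes of these changes were not tested. Averaging repeated probe sets of a gene changed none of these calls.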
